A study of Mus musculus with 72 samples.

Results

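The Period genes Per1, Per2 and Per3 were followed in the hippocampus of 72 mice after contextual fear conditioning (FC), in which a mouse learns to associate a chamber with a foot shock. The members were the array probe sets annotated to exactly 1 gene symbol equal to Per1, Per2 or Per3, which gave 1 probe set for each gene, 10377439 for Per1, 10356601 for Per2 and 10518781 for Per3, out of 35556 probe sets and 18820 gene symbols in all. No other probe set carried any of these symbols. All 3 members passed into every test, since no filter on low values was applied. The platform annotation pairs the Per1 probe set with more than 1 transcript record, and the probe set gives a single value for them.

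All mice were adult C57BL/6J males of 2 months, housed singly on a cycle of 12 h light and 12 h dark and handled on the days before the experiment, and each of the 8 groups held 9 mice. Trained mice received a single foot shock of 1.5 mA for 2 s that ended 2.5 min after they were placed in the chamber, starting at Zeitgeber time (ZT) 3, that is 3 h after lights on. FC30 mice were dissected 30 min, FC4 mice 4 h, FC12 mice 12 h and FC24 mice 24 h after training. RT30 mice were trained in the same way, returned to the chamber for a 5 min retrieval test 24 h after training, and were dissected 30 min after that test. Untrained control mice were handled and never placed in the chamber, and were dissected at the times of day of the 30 min (CC30), 4 h (CC4) and 12 h (CC12) groups. The nominal times of dissection were thus ZT3 for FC24, ZT3.5 for FC30, RT30 and CC30, ZT7 for FC4 and CC4, and ZT15, in the dark phase, for FC12 and CC12. No group saw the chamber without ever having received a shock, so exposure to the chamber and the association with the shock cannot be told apart. No untrained mice were dissected at ZT3 or after a sham test, and CC30 served as the control of FC24 and RT30.

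PER proteins form the negative limb of the circadian clock. Together with the CRY proteins they repress CLOCK and BMAL1 (encoded by Arntl), the activators that switch on the Per genes through E-box sequences, and the delay in this loop makes a rhythm of about a day. Per1 and Per2 are also induced directly by signals, through the transcription factor CREB at cAMP response elements (CRE) and through the glucocorticoid receptor, while Per3 is less required for the rhythm. In mouse tissues outside the suprachiasmatic nucleus, the master clock of the hypothalamus, Per transcripts are known to be high around the start of the dark phase. The comparisons below separate what training or retrieval did at a fixed time of day from what time of day did in mice of like treatment.

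The start regions of Per1 and Per3 are shown because sequences that carry clock and CREB input can lie in such regions. They are taken from RefSeq on GRCm38.p6, in which 2 of the 3 members were matched to a start region in the table used here, run 5′ to 3′ in the direction of transcription and cover 250 bases before to 50 bases after each annotated start. Capitals mark, on either strand, matches to the E-box CACGTG, the related box CACGTT, the CRE TGACGTCA, its core TGACG and the D-box TTATGNAA, which binds the clock output factors DBP, TEF and HLF and the repressor NFIL3. The windows lie at chr11:69098699-69098998 (+) and chr11:69099902-69100201 (+) for the upstream and the downstream start of Per1, and at chr4:151044616-151044915 (-) for Per3.
Per1, upstream start: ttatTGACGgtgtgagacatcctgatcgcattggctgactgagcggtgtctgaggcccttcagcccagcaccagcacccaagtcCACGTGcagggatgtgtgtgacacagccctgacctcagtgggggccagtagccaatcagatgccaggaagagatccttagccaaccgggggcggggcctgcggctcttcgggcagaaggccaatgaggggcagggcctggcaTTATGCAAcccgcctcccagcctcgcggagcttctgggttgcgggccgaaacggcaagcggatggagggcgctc
Per1, downstream start: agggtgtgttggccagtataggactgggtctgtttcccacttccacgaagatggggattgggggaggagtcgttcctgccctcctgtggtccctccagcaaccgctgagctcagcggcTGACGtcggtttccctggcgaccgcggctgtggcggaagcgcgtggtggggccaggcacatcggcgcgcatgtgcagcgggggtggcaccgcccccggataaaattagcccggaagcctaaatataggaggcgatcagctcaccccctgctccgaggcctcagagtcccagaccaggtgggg
Per3: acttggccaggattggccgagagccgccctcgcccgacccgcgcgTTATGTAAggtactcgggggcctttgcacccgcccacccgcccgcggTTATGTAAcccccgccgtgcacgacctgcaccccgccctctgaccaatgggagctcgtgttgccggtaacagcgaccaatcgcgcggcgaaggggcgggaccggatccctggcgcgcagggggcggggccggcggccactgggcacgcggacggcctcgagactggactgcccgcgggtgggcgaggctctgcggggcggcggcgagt

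The upstream Per1 window held an E-box whose first base lay at position -166 from the start, a CRE core at position -246 and a D-box at position -24. The downstream Per1 window held a CRE core at position -132 and none of the other motifs. The Per3 window held a pair of D-boxes, at positions -205 and -158, and neither an E-box nor a CRE core. Of 32851 start regions of the same length, 7.15% held the E-box, 4.68% the related box, 1.79% the full CRE, 20.8% the core, which is also part of the full CRE, and 3.38% the D-box. These are matches of letters and not tests of binding, and no start region of Per2 was available to compare. The part of these motifs in the differences between the Period genes was not tested.

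Per1 was higher 30 min after training and 30 min after retrieval, while Per2 and Per3 did not pass the test in either comparison. Values are RMA signals on the log2 scale, which were not compared between genes because each probe set has its own brightness. Per1 signals in FC30 mice had a lowest value of 8.52, a median of 8.68 and a highest value of 8.75, against 8.23, 8.39 and 8.59 in CC30 mice. In 7 of 9 FC30 mice Per1 lay above every CC30 mouse, so the groups overlapped by few mice. The log2 fold change was 0.26 (SE 0.046, 95% interval 0.168 to 0.360), a fold of 1.2, with an adjusted p of 0.0166 from limma. A change was called at an adjusted p under 0.1, by the Benjamini-Hochberg method over all probe sets, and 0.186% of all probe sets were called higher in FC30 against CC30. By an exact permutation test of the 18 mice, two-sided and unadjusted, p was 0.000206.

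**Figure D1:**
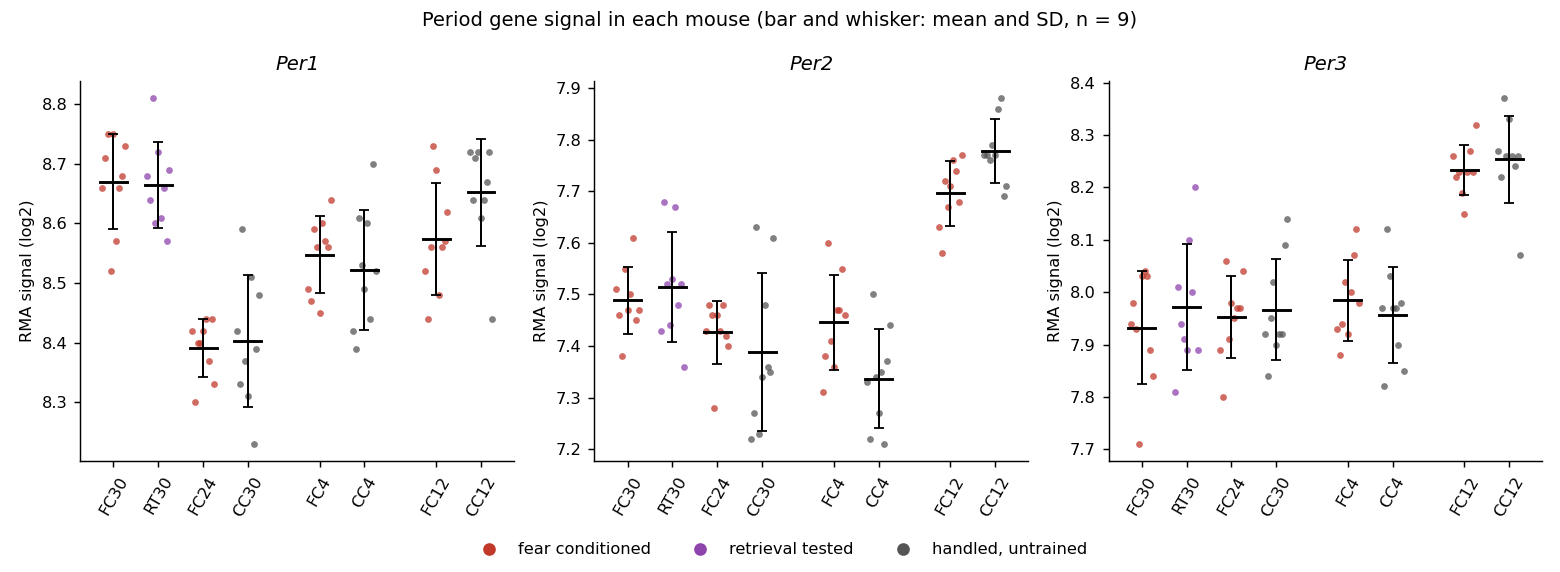
Per1, Per2 and Per3 RMA signal (log2, vertical axis) of each of the 72 mice, with the mean and SD of the 9 mice of each group (horizontal axis, grouped by time of day at dissection). Per1 means of 8.67 in FC30 and 8.66 in RT30 mice stand above 8.40 in CC30 mice, while Per2 and Per3 are highest in FC12 and CC12 mice.

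In RT30 mice the lowest, median and highest Per1 signals were 8.57, 8.66 and 8.81, against 8.23, 8.39 and 8.59 in CC30 mice. Here 8 of 9 RT30 mice exceeded every CC30 mouse, and the log2 fold change was again 0.26 (SE 0.044, 95% interval 0.169 to 0.352, adjusted p = 0.0117 in limma, exact permutation p = 8.23e-05), with 0.186% of probe sets called higher. FC30 and RT30 shared the CC30 mice, so these 2 results are not independent. FC24 mice, which had been trained but not tested, offer a separate control for retrieval. Their Per1 signals ran from 8.30 through a median of 8.40 to 8.44, below all 9 RT30 mice. RT30 exceeded FC24 by 0.27 on the log2 scale (SE 0.032, 95% interval 0.205 to 0.338, adjusted p = 0.000236 in limma), where 0.121% of probe sets were called higher, and the exact permutation p of 4.11e-05 was the smallest that 48620 arrangements of 9 against 9 mice can give. Between RT30 and FC30 mice Per1 differed by -0.0032 (95% interval -0.085 to 0.078), and 0% of probe sets were called in either direction. The single value of this probe set cannot show whether Per1 transcripts changed unequally. By qPCR in other mice, the study found that an exon shared by both known Per1 isoforms increased only after retrieval. The rise of the array signal in FC30 mice was thus not seen with that shared exon. An assay of a single isoform in the study showed an increase after acquisition and a reduction after retrieval. From these results the paper proposes that acquisition and retrieval affect Per1 splicing differently.

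The signal of Per1 in FC24 mice, with a mean of 8.39 ± 0.049, lay close to that of CC30 mice, at 8.40 ± 0.11 (SD, n = 9 each). The difference of -0.01 had a 95% interval of -0.095 to 0.074, and 0% of probe sets were called in FC24 against CC30. At 4 h after training the Per1 difference was also small, with means of 8.55 ± 0.064 in FC4 and 8.52 ± 0.10 in CC4 mice and a log2 fold change of 0.02 (95% interval -0.062 to 0.111). At 12 h the mean was 8.57 ± 0.094 in FC12 mice and 8.65 ± 0.090 in CC12 mice, a log2 fold change of -0.08 (95% interval -0.171 to 0.015, adjusted p = 1 in limma). No probe set was called in FC4 against CC4 (0%, with 1902 at an unadjusted p under 0.05) or in FC12 against CC12 (0%, with 1442), and the methods' t-test called none at the same adjusted threshold.

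Whether the training effect on Per1 differed with time after training was tested with an interaction term in limma. The effect at 30 min exceeded that at 12 h by 0.34 on the log2 scale (SE 0.064, 95% interval 0.212 to 0.472, adjusted p = 0.0137), with 0.0675% of probe sets called higher in this contrast. It exceeded the effect at 4 h by 0.24 (95% interval 0.115 to 0.365), with an adjusted p of 0.279 and 0.045% of probe sets called in either direction. Without the 5 arrays that stood apart (described below) the adjusted p of this second contrast was 0.0298. Elapsed time and time of day at dissection changed together in these contrasts and cannot be told apart.

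Per2, which like Per1 responds to light in the suprachiasmatic nucleus, did not pass the test after training or retrieval. Its signals in FC30 mice had a lowest value of 7.38, a median of 7.47 and a highest value of 7.61, against 7.22, 7.35 and 7.63 in CC30 mice. The CC30 mice spread more widely than any other group, with an SD of 0.15, and 3 of them lay within or above the range of the FC30 mice. The log2 fold change was 0.09 (SE 0.052, 95% interval -0.019 to 0.198, adjusted p = 0.818). In RT30 mice Per2 had 7.36, 7.52 and 7.68 as lowest, median and highest signal, and the log2 fold change against CC30 was 0.12 (95% interval 0.001 to 0.249, adjusted p = 0.719). Against FC24 mice it was 0.08 (95% interval -0.012 to 0.172, adjusted p = 0.869).

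The Per2 difference had opposite signs at 4 h and at 12 h. Per2 averaged 7.45 ± 0.092 in FC4 mice and 7.34 ± 0.095 in CC4 mice (SD, n = 9 each), with 8 of 9 FC4 mice above the CC4 mean and a log2 fold change of 0.10 (SE 0.043, exact permutation p = 0.0257, adjusted p = 0.922 in limma). At 12 h it averaged 7.70 ± 0.062 in FC12 mice and 7.78 ± 0.061 in CC12 mice, with 9 of 9 FC12 mice below the CC12 mean and a log2 fold change of -0.08 (SE 0.039, exact permutation p = 0.0383, adjusted p = 1 in limma). The exact tests are 2 of 39, for 3 genes in 13 comparisons, and are unadjusted. Neither difference passed the test over all probe sets. The difference between both effects, which is also the difference in the change between ZT7 and ZT15, was -0.19 (95% interval -0.303 to -0.069, unadjusted p = 0.002649, adjusted p = 0.999 in limma), and 0% of probe sets were called in that contrast.

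Per3 passed the test in no comparison of training or retrieval. It averaged 7.93 ± 0.11 in FC30, 7.97 ± 0.12 in RT30 and 7.97 ± 0.097 in CC30 mice (SD, n = 9 each), and the groups overlapped throughout. The log2 fold change was -0.03 in FC30 (95% interval -0.130 to 0.066) and 0.01 in RT30 (95% interval -0.100 to 0.111) against CC30. At 4 h it was 0.03 (95% interval -0.058 to 0.116) and at 12 h -0.02 (95% interval -0.090 to 0.051). The intervals at 30 min lie below the 0.168 that bounds the Per1 effect in FC30 mice from below.

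**Figure D2:**
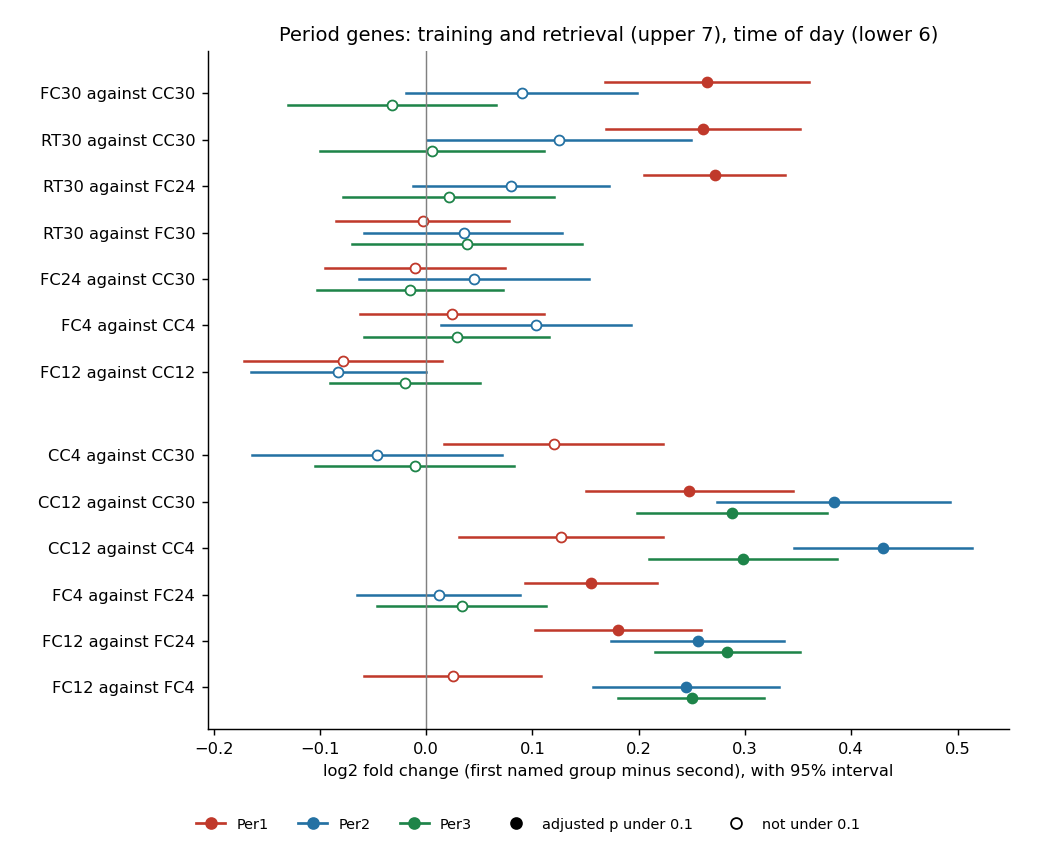
Log2 fold change (horizontal axis) of Per1, Per2 and Per3 with its 95% interval from limma in 13 comparisons (vertical axis), first named group minus second. Filled points had an adjusted p under 0.1. In the comparisons of training and retrieval only Per1 has filled points, between 0.26 and 0.27, and in those of ZT15 with earlier times Per2 and Per3 are filled throughout.

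Whether the Period genes changed unequally was tested directly, as the difference between 2 of them within each array, in 6 comparisons and with exact permutation tests adjusted over all 18 tests. Per1 minus Per3 was larger in FC30 than in CC30 mice by 0.30 on the log2 scale (9 of 9 FC30 mice above the CC30 mean, adjusted p = 0.00296) and larger in RT30 than in CC30 mice by 0.25 (8 of 9 mice, adjusted p = 0.0195). Per1 minus Per2 was larger by 0.17 in FC30 mice (9 of 9 mice, adjusted p = 0.0252) and by 0.14 in RT30 mice (7 of 9 mice, adjusted p = 0.0877). Per2 minus Per3 was larger by 0.12 in FC30 mice (8 of 9 mice, adjusted p = 0.0877) and by 0.12 in RT30 mice (8 of 9 mice, adjusted p = 0.103), and the call in FC30 mice was lost on values as deposited (adjusted p = 0.107). In FC4 against CC4 mice Per1 minus Per2 changed by -0.08 (0 of 9 FC4 mice above the CC4 mean, adjusted p = 0.0711). In FC12 against CC12 mice none of the 3 differences passed, with adjusted p from 0.262 to 0.919.

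Time of day moved all 3 Period genes. In untrained mice Per2 had a lowest, median and highest signal of 7.69, 7.77 and 7.88 at ZT15 (CC12), against 7.22, 7.35 and 7.63 at ZT3.5 (CC30), and no CC12 mouse overlapped the CC30 mice. The log2 fold change was 0.38 (SE 0.052, adjusted p = 0.000626 in limma). Per3 had 8.07, 8.26 and 8.37 in CC12 mice, against 7.84, 7.92 and 8.14 in CC30 mice, with 8 of 9 CC12 mice above all CC30 mice. The log2 fold change was 0.29 (SE 0.043, adjusted p = 0.0012). Per1 had 8.44, 8.67 and 8.72 in CC12 mice, against 8.23, 8.39 and 8.59 in CC30 mice, and again 8 of 9 CC12 mice lay above all CC30 mice. Its log2 fold change was 0.25 (SE 0.047, adjusted p = 0.00791). All 3 members were called higher in CC12 against CC30, where 2.05% of all probe sets were called higher and 1.44% lower.

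The time course differed between the members. Between ZT3.5 and ZT7, Per1 was higher in CC4 than in CC30 mice by 0.12 (SE 0.049, 8 of 9 CC4 mice above the CC30 mean, adjusted p = 0.724 in limma), while Per2 differed by -0.05 and Per3 by -0.01. None of the members was called in CC4 against CC30, where 0.0731% of probe sets were called in either direction. The within-array tests found Per1 minus Per2 larger in CC4 than in CC30 mice by 0.17 (9 of 9 mice, adjusted p = 0.0195) and Per1 minus Per3 larger by 0.13 (9 of 9 mice, adjusted p = 0.0654). Between ZT7 and ZT15 Per2 had signals from 7.69 to 7.88 in CC12 mice, against 7.21 to 7.5 in CC4 mice, and Per3 from 8.07 to 8.37, against 7.82 to 8.12. The log2 fold changes of CC12 against CC4 were 0.43 for Per2 (SE 0.040, adjusted p = 7.12e-06) and 0.30 for Per3 (SE 0.042, adjusted p = 0.000439), with 2.54% of probe sets called higher and 2.47% lower. Per1 differed by 0.13 (SE 0.046, 8 of 9 CC12 mice above the CC4 mean, adjusted p = 0.168), which fell below 0.1 under 4 alternative settings. In CC12 against CC30 mice Per1 minus Per2 changed by -0.14 (adjusted p = 0.0536), whereas Per1 minus Per3 changed by -0.04 (adjusted p = 0.455).

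**Figure D3:**
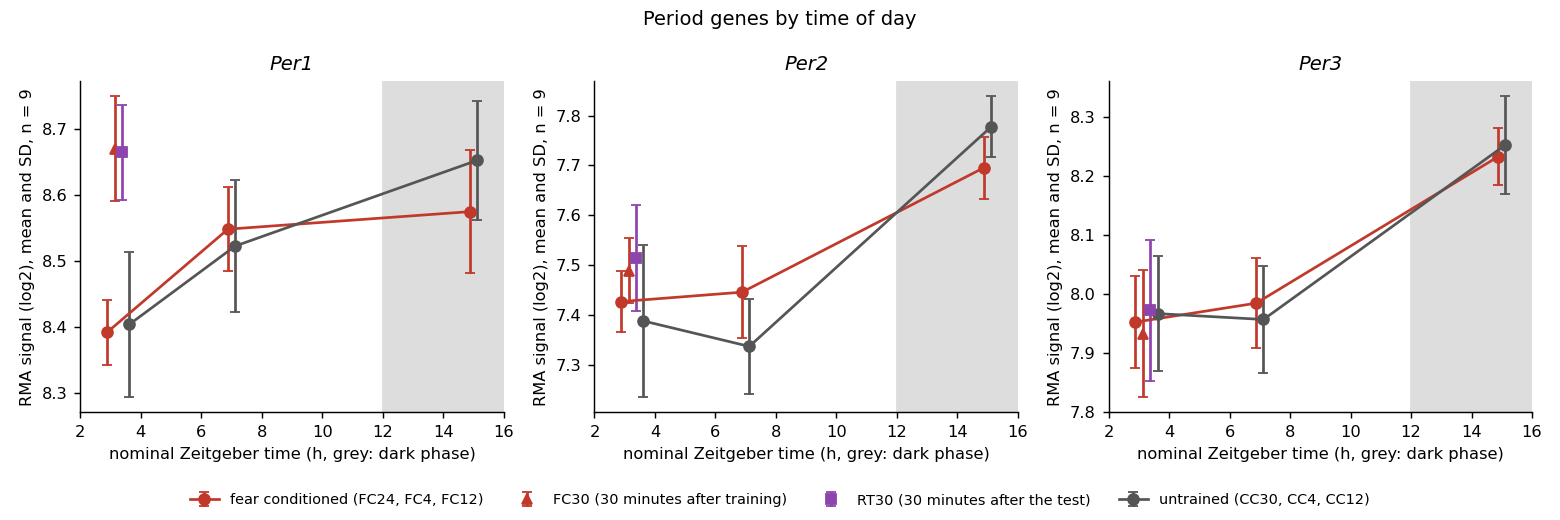
RMA signal (log2, vertical axis) of Per1, Per2 and Per3 against nominal Zeitgeber time (horizontal axis, dark phase in grey), as mean and SD of 9 mice, with markers of 1 time shifted sideways so that they can be told apart. One line joins the trained groups FC24, FC4 and FC12 and the other the untrained groups CC30, CC4 and CC12, and only in Per1 do FC30 and RT30 lie well above both lines.

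Trained mice gave a second set of arrays for time of day, with no mouse in common with the untrained set. Time since training also changed in this set, 24 h at ZT3, 4 h at ZT7 and 12 h at ZT15, and cannot be told apart from time of day. Per2 ran from 7.58 through a median of 7.71 to 7.77 in FC12 mice, against 7.28, 7.43 and 7.48 in FC24 mice, without overlap. The log2 fold change of FC12 against FC24 was 0.26 (SE 0.039, adjusted p = 0.00126). Per3 ran from 8.15 through 8.23 to 8.32 in FC12 mice, against 7.80, 7.97 and 8.06 in FC24 mice, also without overlap, with a difference of 0.28 on the log2 scale (SE 0.033, adjusted p = 0.000139). Per1 ran from 8.44 through 8.56 to 8.73 in FC12 mice, against 8.30, 8.40 and 8.44 in FC24 mice, with a difference of 0.18 on the log2 scale (SE 0.037, adjusted p = 0.0155). All 3 members were called higher in FC12 against FC24, where 2.11% of all probe sets were called higher and 1.08% lower.

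In FC12 against FC4 mice, Per2 (0.24, SE 0.042, adjusted p = 0.0036) and Per3 (0.25, SE 0.033, adjusted p = 0.000457) were called, with 2.51% of probe sets called higher and 1.71% lower. Per1 was not called there, at 0.03 (95% interval -0.058 to 0.108). Per1 was instead higher in FC4 than in FC24 mice, with signals from 8.45 to 8.64 against 8.30 to 8.44 and no overlap, a difference of 0.15 on the log2 scale (SE 0.030, adjusted p = 0.0629), and 0.0787% of probe sets called higher. This call was lost with the replicate number as a block (adjusted p = 0.357) and with all 8 groups in one fit (adjusted p = 0.135). Per2 and Per3 differed by 0.01 and 0.03 between FC4 and FC24 mice.

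The time-of-day change of trained mice was compared with that of untrained mice by interaction terms. For ZT15 against the morning, the trained minus untrained difference was -0.07 for Per1 (95% interval -0.188 to 0.054), -0.13 for Per2 (95% interval -0.260 to 0.005) and -0.0044 for Per3 (95% interval -0.112 to 0.103), each with an adjusted p of 1 in limma and 0% of probe sets called. For ZT7 against the morning the differences were 0.03 for Per1 (95% interval -0.081 to 0.151), 0.06 for Per2 (95% interval -0.078 to 0.195) and 0.04 for Per3 (95% interval -0.074 to 0.163), again with 0% called.

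Ordered by their mean, Per1 was highest in FC30 (8.67), RT30 (8.66) and CC12 mice (8.65), followed by FC12 (8.57), FC4 (8.55), CC4 (8.52), CC30 (8.40) and FC24 mice (8.39). The only step between neighbours in that order that exceeded the larger SD of the pair was that of 0.119 between CC4 and CC30 mice (SD 0.111). The Per1 level 30 min after training in the morning was thus within the spread of the level that untrained mice had at ZT15. Per2 was highest in CC12 (7.78) and FC12 mice (7.70), with a gap of 0.181 to RT30 mice (7.51), and then ran down through FC30, FC4, FC24 and CC30 to CC4 mice (7.34). The Per2 gap between CC12 and FC12 mice, 0.082, also exceeded the larger SD of 0.062, and no gap below RT30 did. Per3 was highest in CC12 (8.25) and FC12 mice (8.23), with a gap of 0.249 to the other 6 groups, whose means lay between 7.93 in FC30 and 7.98 in FC4 mice. The range of group means was 0.279 for Per1, 0.441 for Per2 and 0.321 for Per3, and differences between groups made up 62.8% of the variance of Per1 over the 72 mice, 72.9% of that of Per2 and 67.8% of that of Per3.

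Across the 72 mice Per2 and Per3 had a Pearson r of 0.76, Per1 and Per2 of 0.48 and Per1 and Per3 of 0.29. After the mean of each group was subtracted, r was 0.38 for Per2 and Per3, 0.36 for Per1 and Per2 and 0.23 for Per1 and Per3, which is positive but weak for each pair. These values describe mice that share an array plate and the removal of a common component, and are given without a test.

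The genes whose pattern was most like that of each member were taken as the 5 other symbols with the highest Pearson r over the 72 arrays. For Per1 they were Nr4a1 (r = 0.70), an immediate early nuclear receptor, the long non-coding RNA Lncpint (0.69), Dusp5 (0.67), a phosphatase of the ERK kinases, Gadd45b (0.66), a stress-induced gene tied to DNA demethylation, and Errfi1 (0.66), an inhibitor of the EGF receptor. Within groups these r were between 0.33 and 0.57. Per2 stood at rank 86 and Per3 at rank 838 in the same order for Per1. For Per2 the closest were Gpt2 (0.80), an alanine aminotransferase, Noxred1 (0.80), Ccar1 (0.79), Mfsd2a (0.79), a lysophospholipid transporter, and Cfp (0.78), which encodes the complement factor properdin, and Per3 followed at rank 10. For Per3 they were Ksr1 (0.82), a scaffold of the ERK pathway, Mfsd2a (0.81), Fmo2 (0.76), a flavin monooxygenase, Per2 (0.76) and Adamts17 (0.75), a secreted protease, while Per1 stood at rank 2016. The r of Fmo2 with Per3 was 0.10 once group means were subtracted. All of these genes were chosen by their likeness over the same arrays, so that likeness was not read as a result. Nr4a1, Errfi1 and Mfsd2a also belong to the lists below and are counted there.

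Genes of the same pathways were read from lists, by the number that passed the test and by the median. Of 16 activity-induced targets of CREB and SRF, 12 were higher in FC30 against CC30 (median log2 fold change 0.47, and -0.002 over all probe sets), 11 in RT30 against CC30 (median 0.44) and 12 in RT30 against FC24 (median 0.43), and 0 were lower. Of all probe sets, 0.186%, 0.186% and 0.121% were called higher in these comparisons. The largest changes of listed genes in FC30 mice were those of Egr2 (1.27) and Arc (0.86), both immediate early genes, Fos (0.82), a subunit of AP-1, and Nr4a1 (0.76). Per1, at 0.26, thus rose with these genes but by less than each of the 12. In CC12 against CC30 mice 1 of the 16 was higher, Arc (0.47, adjusted p = 0.00253 in limma), beside 2.05% of all probe sets, with a list median of 0.003. In CC12 against CC4 mice 5 of the 16 were higher, Arc (0.72), Egr2 (0.25), Nr4a1 (0.24), Junb (0.19) and Nr4a2 (0.14), with a list median of 0.112, beside 2.54% of all probe sets. In FC12 against FC24 mice 0 were higher and 1 was lower, Crem (-0.11), with a list median of 0.014. Of all probe sets, 2.11% were called higher and 1.08% lower there.

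Of 13 glucocorticoid targets, 3 were higher in FC30 against CC30, Ddit4 (0.32), an inhibitor of mTOR, Nfkbia (0.26), an inhibitor of NF-kB, and Sgk1 (0.20), a kinase. The same 3 genes were higher in RT30 against CC30. List medians were 0.074 and 0.143 (-0.002 over all probe sets in both), and 0.186% of all probe sets were called higher in each comparison. In RT30 against FC24, the separate control for retrieval, 1 of the 13 was higher, Sgk1 (0.24, adjusted p = 0.00278 in limma), beside 0.121% of all probe sets. The list median was 0.107, while Ddit4 (0.24, adjusted p = 0.217) and Nfkbia (0.25, adjusted p = 0.255) did not pass. In CC12 against CC30 mice 7 of the 13 were higher (median 0.21), beside 2.05% of all probe sets, and in FC12 against FC24 mice 8 (median 0.18), beside 2.11%, led in both by Plin4 (0.65 and 0.88), a lipid droplet protein. Hif3a, a hypoxia-inducible factor, differed by 0.53 and 0.56 in these comparisons, Mfsd2a by 0.51 and 0.57, and Tsc22d3, a glucocorticoid-induced leucine zipper protein, by 0.45 and 0.39. The median over all probe sets was -0.003 in CC12 against CC30 and 0.000 in FC12 against FC24. In CC12 against CC4 mice 5 of the 13 were higher (median 0.118), beside 2.54% of all probe sets.

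None of the 22 other clock genes measured was called in FC30 or RT30 against CC30, with list medians of -0.010 and -0.008. Time of day called 5 of them higher and 1 lower in CC12 against CC30, and 6 higher and 2 lower in FC12 against FC24. Of all probe sets, 2.05% were higher and 1.44% lower in the CC12 comparison, and 2.11% and 1.08% in the FC12 comparison. Among the activators, Arntl was lower in CC12 mice, with -0.29 against CC30 (SE 0.041, adjusted p = 0.000854) and in FC12 mice, with -0.29 against FC24 (SE 0.046, adjusted p = 0.00211), opposite in sign to the Period genes. Among the partners of PER, Cry1 was higher by 0.24 in CC12 against CC30 and by 0.24 in FC12 against FC24. Among the other repressors at E-boxes, Ciart (0.39) and Bhlhe41 (0.28) were higher in CC12 against CC30, and both with Bhlhe40 in FC12 against FC24 (0.44, 0.32 and 0.16). Of the other groups, Nr1d2, a nuclear receptor of the second clock loop, differed by 0.23 in CC12 against CC30, and Tef, a D-box factor, by 0.11. Rorb, another receptor of that loop, was the other gene called lower in FC12 against FC24 (-0.18).

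**Figure D4:**
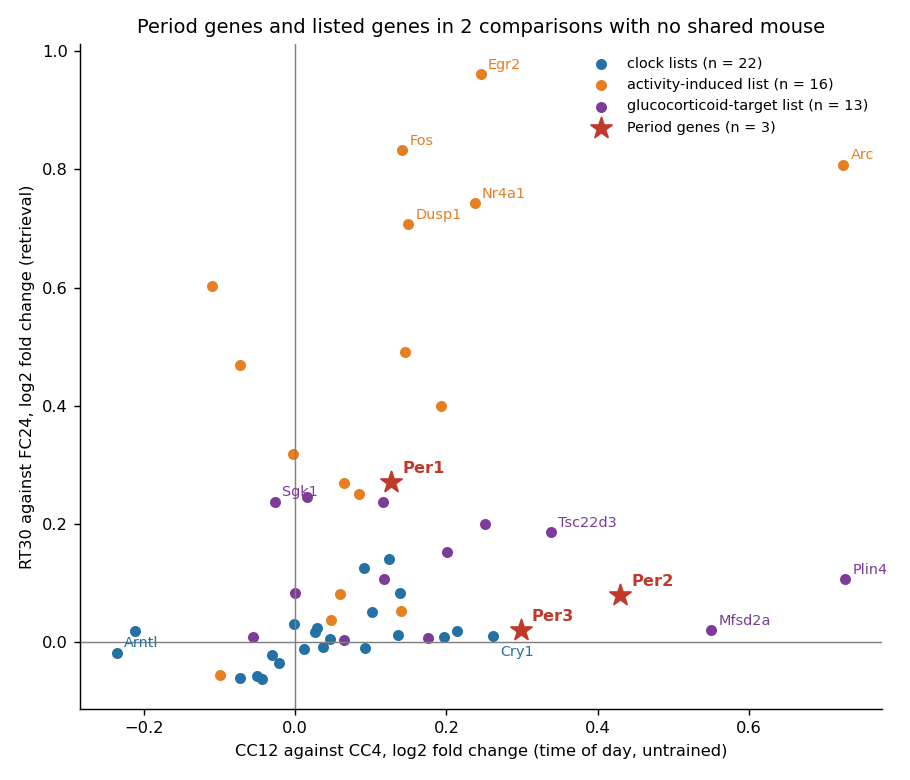
Log2 fold change of RT30 against FC24 (vertical axis) and of CC12 against CC4 (horizontal axis), which have no mouse in common, for the 3 Period genes (stars) and the measured genes of the clock, activity-induced and glucocorticoid-target lists (points). Per1 lies at 0.27 for retrieval and 0.13 for time of day, Per2 at 0.08 and 0.43, and Per3 at 0.02 and 0.30.

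Array medians lay between 5.82 and 5.88, and the first principal component, which held 17.4% of the variance, was subtracted before the tests. It moved the Period differences by at most 0.013. On this component 5 arrays stood apart from their groups, 1 each in FC30, FC24, CC30, FC12 and CC12. All limma calls of single members given above, other than Per1 in FC4 against FC24, were made under every setting, with and without these arrays. This does not cover the within-array differences. Markers of hippocampal and other cell types were read on the same arrays. Prox1, which marks dentate granule cells, averaged 9.55, Wfs1 of CA1 cells 9.89 and Slc1a3 of astrocytes 11.05, so the defining markers of the tissue were present. The summed signal of 4 choroid plexus markers, such as Ttr, spread over a wide range, from 8.78 to 12.12 in FC30 (mean 10.45), 8.43 to 11.13 in RT30 (mean 9.38) and 8.67 to 11.67 in CC30 mice (mean 9.21), and from 8.66 to 12.40 in CC12 mice (mean 10.35). None of these 4 genes was called in any comparison. Within groups the r of this sum with the Period genes was -0.19 for Per1, -0.06 for Per2 and -0.16 for Per3. The part of choroid plexus tissue in the Period differences was not tested.

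Of the other cell type lists, that of 3 dentate granule markers had the highest r with a Period gene within groups, 0.52 for Per3 over 72 mice, and 0.27 for Per1 and 0.21 for Per2. Its summed signal averaged 10.34 in FC12 and 10.19 in FC24 mice. There 2 of 3 markers were called higher, Dsp (0.47) and Prox1 (0.20), beside 2.11% of all probe sets. The other marker, C1ql2, differed by -0.13 and was not called (adjusted p = 0.2 in limma). In FC4 against FC24 mice 1 of the 3 markers was called higher, beside 0.0787% of all probe sets, with a list median of 0.021. In untrained mice the summed signal of the dentate list averaged 10.27 in CC12 and 10.29 in CC30 mice. The 3 markers did not move together there. C1ql2 was called lower (-0.25), while Dsp (0.25, adjusted p = 0.212 in limma) and Prox1 (-0.001) were not called. Opalin, of the 3 oligodendrocyte markers, was lower in CC12 against CC30 (-0.62), as was Cx3cr1 of the 5 microglia markers (-0.25), and of the 4 endothelial markers Slco1a4 was higher (0.22) and Pecam1 lower (-0.17). The medians of the oligodendrocyte and microglia lists there were -0.122 and -0.048. In CC12 against CC4, Opalin (-0.70), Cx3cr1 (-0.20) and the CA3 marker Iyd (-0.27) were lower. The other CA3 markers, Bok (0.007) and Cpne4 (-0.06), were not called there, nor were the oligodendrocyte markers Mag (-0.17) and Mog (-0.06). In CC4 against CC30 Cldn5, an endothelial tight junction gene, was lower (-0.31). In FC12 against FC24, Opalin (-0.48) and Cldn5 (-0.18) were lower and Slco1a4 was higher (0.28). Mog (0.07) and Mag (-0.02) did not follow Opalin and were not called. In FC12 against FC4, Opalin (-0.52), Pecam1 (-0.23) and the astrocyte marker Aqp4 (-0.13) were lower, and Slco1a4 (0.19) and Prox1 (0.18) were higher. Mog (0.04) and Mag (-0.01) were again not called. Neither were the dentate markers C1ql2 (-0.05) and Dsp (0.17) or the endothelial markers Cldn5 (0.05) and Flt1 (-0.006). Of the 5 astrocyte markers only Aqp4 was called there, and the list median was -0.087. In RT30 against CC30 and against FC24, Cldn5 was lower (-0.20 and -0.18), and no other marker was called in the 30 min comparisons. The part of cell composition in the Period differences was not tested beyond these values. In whole hippocampus, fewer cells of a type and less RNA per cell cannot be told apart.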

How the data were processed

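RNA from the hippocampi of 72 mice in 8 groups of 9, with 1 array a mouse, was hybridised by the authors to whole-transcript Affymetrix arrays on 1 plate. The deposited values are log2 signals, which the authors summarised with RMA (background corrected and quantile normalized between arrays), for 35556 probe sets with 0 missing values. The sources used here name no genome build for the table. All sample columns were mapped to samples by their labels. Gene symbols came from the platform annotation, in which 21218 probe sets had 1 symbol, 1881 several and 12457 none.

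As in the methods of the study, the data were normalized against 1 principal component, computed by singular value decomposition after every row was centred. The component found here held 17.4% of the variance. This is a smaller share than the methods state for theirs, so it may not be the same component. Each of 13 comparisons was fitted to its own 18 arrays, and each of 5 interaction contrasts to the arrays of its 4 groups, with limma 3.58.1 in R 4.3.3. All tests were two-sided, and an adjusted p under 0.1 by Benjamini-Hochberg over all probe sets was called. Exact permutation tests used 48620 arrangements of 9 against 9 mice and ran in Python 3.11.15 (pandas 2.3.3, numpy 2.4.6 and scipy 1.17.1). Figures were drawn with matplotlib 3.10.9. The fits were checked on simulated data with known changes. The number of arrays limits the precision, with a median SE between 0.0487 and 0.0545 in the 13 comparisons.

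The values per mouse given in the text are those deposited, while differences and tests use values with the component removed. The genes named were the 3 members, the 5 genes most like each in Pearson r, and at most the 4 members with the largest change of each list. Dsp, Prox1 and other markers that were called are also given, as are Junb, Nr4a2 and Crem, which were chosen after their values were seen. Markers of the same lists that were not called, such as Mog, Mag, Bok and Cpne4, are given beside them. The members, lists and tests were chosen with earlier results of these data known, and the alternatives without CC12 replicate 9 or FC24 replicate 4 were chosen after seeing the values. Of the listed symbols, 8 were not matched and are not used here. The 9 mice of a group came from separate experiments according to the labels.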

Additional observations from a re-analysis of the deposited data

Results flagged for a closer look

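In CC12 mice, replicate 9 lay apart from the other 8 for both Per1 (8.44, against 8.61 to 8.72) and Per3 (8.07, against 8.22 to 8.37), because its gap to the nearest mouse took 0.607 and 0.50 of the range of the group, above Dixon's critical value for 9 samples. Its Per2 signal of 7.71 lay inside the range of that group. Without this mouse, Per1 in CC12 against CC4 had a log2 fold change of 0.15 and passed the threshold (adjusted p = 0.055 in limma), and Per1 in FC12 against CC12 had -0.10 (adjusted p = 0.995).

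In FC24 mice, replicate 4 had a Per2 signal of 7.28, against 7.40 to 7.48 in the other 8 mice, with a gap of 0.60 of the range. This array was 1 of the 5 that stood apart on the first principal component. Without it, Per2 in FC12 against FC24 had a log2 fold change of 0.24 (adjusted p = 0.00193 in limma). Such gaps were looked for in 24 combinations of gene and group, and chance gives about 1 in 20.

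The training effect on Per1 differed between 30 min and 12 h, by 0.34 on the log2 scale with an adjusted p of 0.0137 for the interaction in limma.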

How the results depend on the processing

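Of 54 results for the members, 46 kept their direction and their side of the threshold under all alternatives run, and of 15 called results 14 stayed called. The exception was Per1 in FC4 against FC24 (0.15), with an adjusted p of 0.135 when all 8 groups shared one fit and 0.357 with the replicate block. Per1 in CC12 against CC4 passed with the first 2 components removed (0.13), with all 8 groups in one fit (0.13), without the arrays apart (0.14) and without CC12 replicate 9 (0.15). Per1 in the contrast of the 30 min with the 4 h effect passed without the arrays apart (0.27). Differences close to 0 changed sign: Per1 in FC24 against CC30 was 0.0118 without the arrays apart, Per1 in RT30 against FC30 was 0.0037 with the first 2 components removed, Per2 in FC4 against FC24 was -0.0033 without the arrays apart and -0.0083 without FC24 replicate 4, and Per3 was 0.0041 without the arrays apart and 0.0107 without CC12 replicate 9 in the contrast of the 30 min with the 12 h effect, and 0.0011 with the first 2 components removed in that of time of day. The causes were not tested.

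The replicate numbers were not taken to pair the mice, because the labels do not say whether a number marks the same experiment in every group. Correlations of deviations did not settle this. No comparison had all 9 same-numbered pairs with a correlation over 0.1, but a modest pairing could also miss that bar. In FC4 against CC4, where the mean correlation was highest at 0.109, 4 of 9 mice correlated best with their own number. With the number as a block the probe sets called were 43 in FC30, 47 in RT30 and 705 in CC12, each against CC30 (91, 99 and 1243 without), 0 in CC4 against CC30 (26 without), 9 in FC4 against FC24 (40 without), 723 in FC12 against FC24 (1136 without) and 927 in FC12 against FC4 (1500 without). With all 8 groups in one fit they were 149 in RT30 against CC30, 108 in CC4 against CC30, 2810 in CC12 against CC4 (1782 in pair-wise fits), 1 in FC24 against CC30, 2 in FC4 against CC4 and 25 (against 16) in the contrast of the 30 min with the 4 h effect. With the first 2 components removed they were 2862 in CC12 against CC4, 62 in FC4 against FC24, 47 in CC4 against CC30 and 2 in FC4 against CC4. Without the arrays apart they were 46 in CC4 against CC30, 3 in FC4 against CC4 and 32 in the contrast of the 30 min with the 4 h effect. Over probe sets with 1 gene symbol they were 53 in FC30 against CC30 and 62 in FC4 against FC24.

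Per2 minus Per3 within each array lost its call in FC30 against CC30 on values as deposited (0.14, adjusted p = 0.107), and gained one without the arrays apart in RT30 against CC30 (adjusted p = 0.0396), FC4 against CC4 (adjusted p = 0.0934) and CC12 against CC30 (adjusted p = 0.0587). The local false discovery rates of the study's methods were not run.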
